A study of Homo sapiens with 3 samples.

Results

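A set of 10 genes that regulate or mark the epithelial-mesenchymal transition (EMT) were followed through the mRNA sequencing of 3 hepatocellular carcinoma (HCC) cell lines. They were taken by gene symbol, namely CDH1, CDH2, VIM, FN1, ZEB1, ZEB2, SNAI1, SNAI2, TWIST1 and PRRX1, and 9 of them were among the 16149 genes listed in at least 1 library. The exception was TWIST1, which was listed in none. The cells were a parental line, which the labels give as HCCLM3 with low metastatic ability, and 2 lines derived from it. Subclone 1 carries the label of a higher ability to reach the lung, and subclone 2 that of reaching both lung and celiac lymph node. All were human cancer cells grown in DMEM, and each was sequenced as 1 library. In the paper, the parent is HCCLM3-R, a derivative that expresses red fluorescent protein and is described as highly metastatic, and its monoclonal lines were grown by limiting dilution of cells cultured from lung and lymph node metastases of mouse xenografts. Which of its clones were sequenced is not given in the sources used here, so subclone 1 and subclone 2 are named as the labels name them.

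In EMT, epithelial cells loosen their contacts and take on the shape and motility of mesenchymal cells. E-cadherin, the product of CDH1, holds epithelial neighbours together, while N-cadherin (CDH2), the filament protein vimentin (VIM) and the matrix glycoprotein fibronectin (FN1) are the classical markers of the mesenchymal side. SNAI1, SNAI2, ZEB1 and ZEB2 encode zinc finger repressors that bind E-boxes, among them those of CDH1. TWIST1 is a helix-loop-helix factor and PRRX1 a homeobox factor of mesenchyme, and both can induce EMT. Hepatocytes and many HCC lines also carry N-cadherin and secrete fibronectin, so neither gene alone marks a mesenchymal cell in the liver.

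The level of a gene is given in RPKM, its reads scaled to gene length and library total, and the parent had 4488825 reads in total, subclone 1 had 4609696 and subclone 2 had 4725150. Reads per gene were recovered from the steps of the RPKM. A 95% interval is an exact Poisson interval for a level and an exact binomial (Clopper-Pearson) interval for a ratio, and covers counting error only. No line had a second library, so no difference between cell lines was tested and no p-value is given. Of 20 common housekeeping genes, 20 were above 0 in every library. Among the 11 hepatocyte markers, keratins KRT8 and KRT18 were abundant in every library (at least 953 RPKM), whereas TTR, APOA1 and SERPINA1 had at most 4 reads in any of them. ALB, encoding albumin, had 2.46 RPKM in the parent, 49.5 RPKM in subclone 1 and 68.8 RPKM in subclone 2.

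CDH1 was the EMT gene that differed most between the parent and the subclones among those found in all 3 libraries. It had 45 reads in the parent, or 2.08 RPKM (95% interval 1.52 to 2.79), 199 reads in subclone 1, or 8.97 RPKM (7.76 to 10.3), and 280 reads in subclone 2, or 12.3 RPKM (10.9 to 13.8). The 3 intervals did not overlap, and the parent was the lowest. Subclone 1 was 4.31-fold above the parent (3.10 to 6.09) and subclone 2 was 5.91-fold above it (4.30 to 8.29). Subclone 2 also exceeded subclone 1 by 1.37-fold (1.14 to 1.66). On the log2 scale with a pseudocount of 0.1 RPKM, the ratios of CDH1 over the parent were 2.05 and 2.51, at percentiles 98.8 and 99.2 among the 11370 genes whose RPKM averaged 1 or more in the 3 libraries, which is the filter used throughout. Among the nearest 3 genes past the filter on each side of CDH1 along chromosome 16, the log2 ratios over the parent ranged from -0.62 (PRMT7, subclone 1) to 0.42 (HAS3, subclone 2). For subclone 2 over subclone 1, these neighbours ranged from 0.16 (CHTF8) to 0.88 (PRMT7). CDH1 lay within that range, at 0.45.

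CDH2 was abundant in every line. It had 863 reads in the parent, or 43.9 RPKM (41.0 to 46.9), 1177 reads in subclone 1, or 58.3 RPKM (55.0 to 61.7), and 1015 reads in subclone 2, or 49.0 RPKM (46.1 to 52.2). Subclone 1 was thus 1.33-fold above the parent (1.22 to 1.45) and subclone 2 1.12-fold above it (1.02 to 1.23), both under 2-fold. The parent had 21.1 times as much CDH2 as CDH1, as a ratio of RPKM (15.6 to 29.1). This ratio was 6.50 in subclone 1 (5.59 to 7.59) and 3.99 in subclone 2 (3.49 to 4.57). CDH2 stayed above CDH1 in all 3 libraries, and its own level was not lower in either subclone.

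**Figure D1:**
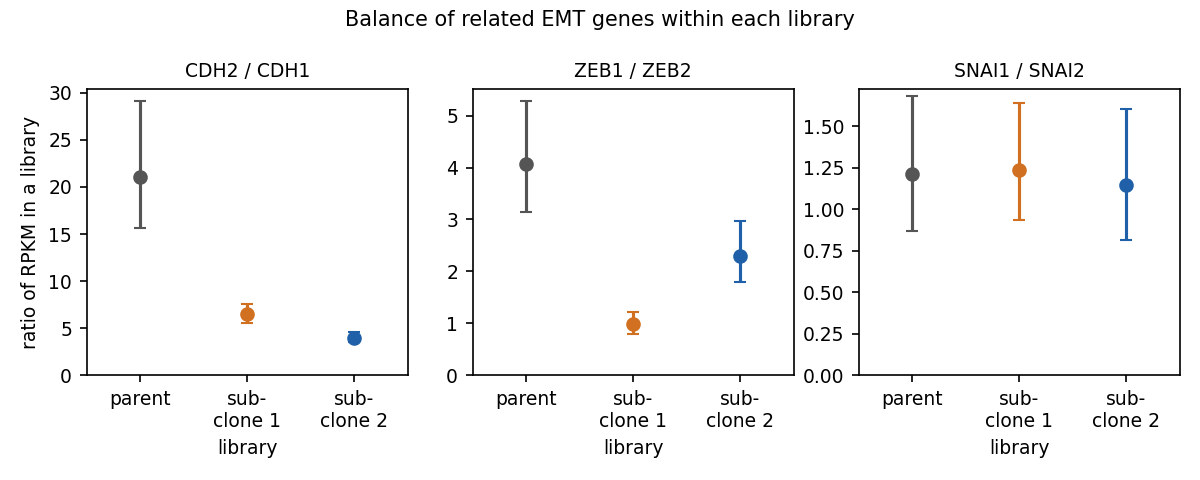
Ratio of RPKM between 2 related EMT genes (vertical axes, linear from 0) in each library (horizontal axes), as a point with its exact 95% counting interval; each point is 1 library. CDH2 per CDH1 goes from 21.1 in the parent to 6.50 and 3.99 in the subclones, ZEB1 per ZEB2 is lowest in subclone 1 at 0.988, and SNAI1 per SNAI2 lies between 1.15 and 1.24.

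VIM was low in all lines and did not separate them. It had 43 reads in the parent, or 4.45 RPKM (3.22 to 5.999), 50 reads in subclone 1, or 5.04 RPKM (3.74 to 6.65), and 52 reads in subclone 2, or 5.12 RPKM (3.82 to 6.71). The ratio over the parent was 1.13 in subclone 1 (0.738 to 1.74) and 1.15 in subclone 2 (0.752 to 1.76), so that a difference was not detectable at this depth, and one of 2-fold lies outside both intervals. The epithelial filament gene KRT8 was 362 times as high as VIM in the parent, 325 times in subclone 1 and 341 times in subclone 2, as ratios of RPKM.

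FN1 was by far the most abundant of the 10 genes. It had 64295 reads in the parent, or 1625 RPKM (1612 to 1637), 72560 reads in subclone 1, or 1786 RPKM (1773 to 1799), and 43076 reads in subclone 2, or 1034 RPKM (1024 to 1044). Its level lay at percentile 99.7 or above in every library. Subclone 2 was 1.57-fold below the parent (1.55 to 1.59) and 1.73-fold below subclone 1 (1.71 to 1.75), whereas subclone 1 was 1.10-fold above the parent (1.09 to 1.11). With at least 43076 reads per library these intervals are narrow, and they leave out the spread between cultures, which 1 library per line cannot show. Dividing each library by ACTB brought the log2 ratio of FN1 in subclone 1 over the parent from 0.14 to 0.0037. In subclone 2 the log2 ratio of FN1 over the parent was -0.65 and stayed between -0.69 and -0.59 under all scalings tried.

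**Figure D2:**
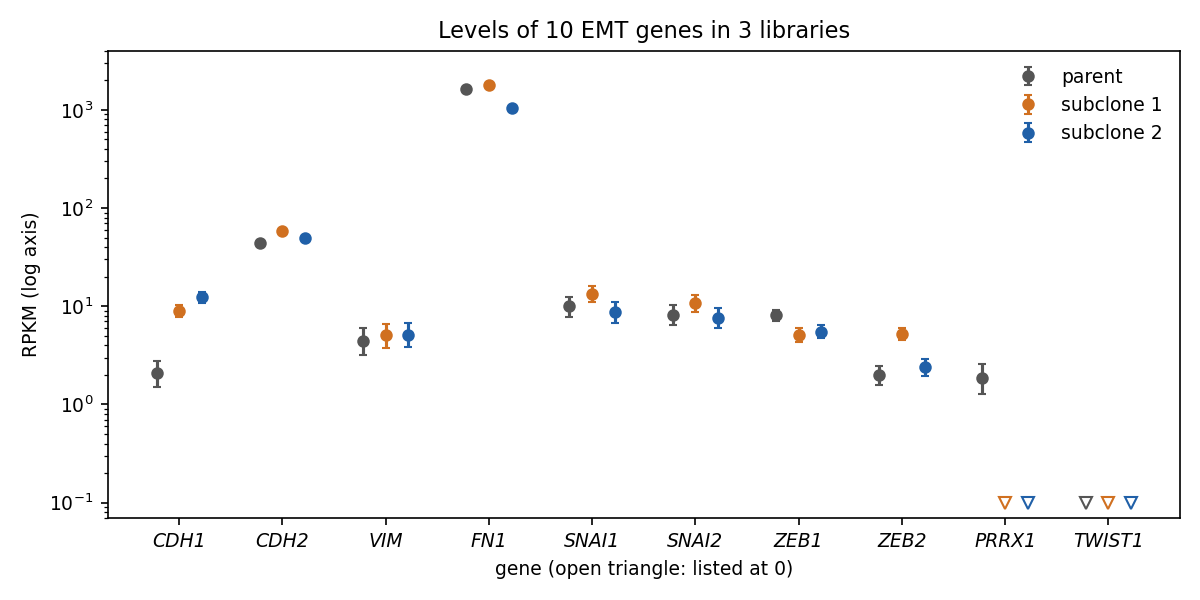
Level of the 10 EMT genes (horizontal axis) in RPKM (vertical axis, logarithmic), one point per library with its exact 95% Poisson interval on reads, in grey for the parent, orange for subclone 1 and blue for subclone 2. Open triangles at the foot mark genes not listed and taken as 0, namely PRRX1 in both subclones and TWIST1 in all 3; FN1 lies above 1000 RPKM in every library, and CDH1 is lowest in the parent at 2.08 RPKM.

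Among the repressors of CDH1, ZEB1 and ZEB2 differed in pattern. ZEB1 had 229 reads in the parent, or 8.13 RPKM (7.11 to 9.25), 149 reads in subclone 1, or 5.15 RPKM (4.36 to 6.05), and 164 reads in subclone 2, or 5.53 RPKM (4.72 to 6.44). It was lower in both subclones than in the parent, by 1.58-fold in subclone 1 (1.28 to 1.95) and by 1.47-fold in subclone 2 (1.20 to 1.81). Neither difference reached 2-fold, and the subclones could not be told apart, with a ratio of 1.07 (0.855 to 1.35).

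ZEB2 instead was high in subclone 1. It had 83 reads in the parent, or 2 RPKM (1.59 to 2.48), 222 reads in subclone 1, or 5.21 RPKM (4.55 to 5.94), and 105 reads in subclone 2, or 2.40 RPKM (1.97 to 2.91). Subclone 1 was 2.60-fold above the parent (2.02 to 3.39), and subclone 2 was 2.17-fold below subclone 1 (1.71 to 2.76). The log2 ratio between the subclones, -1.08, came under 2-fold with a pseudocount of 1 RPKM or with division by ACTB or GAPDH, where it was -0.87 at the least. The parent and subclone 2 overlapped, with a ratio of 1.20 (0.893 to 1.62). The nearest 3 genes past the filter on each side of ZEB2 had log2 ratios of subclone 1 over the parent between -0.54 and 0.13, against 1.34 for ZEB2. As a ratio of RPKM, ZEB1 exceeded ZEB2 by 4.06-fold in the parent (3.15 to 5.29) and by 2.30-fold in subclone 2 (1.79 to 2.97), while in subclone 1 their ratio was 0.988 (0.798 to 1.22). Whether reads were counted by strand is not given in the sources used here. ZEB1, ZEB2 and VIM each overlap an antisense gene (ZEB1-AS1, ZEB2-AS1 and VIM-AS1), none of which has a value of its own in the files, and reads from the shared stretches may not be told apart.

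The E-box read by Snail and ZEB proteins was searched in the 250 bases before the RefSeq transcript starts of the EMT genes (GRCh38.p14), as CAGGTG or its reverse complement CACCTG. Windows were at hand for CDH2, VIM, FN1, ZEB1, ZEB2 and PRRX1, 13 in all. CDH1, SNAI1, SNAI2 and TWIST1 had no window and were not searched, so nothing is known here of their E-boxes. Of the 6 genes searched, ZEB1 alone had the motif, in 2 of its 7 windows. Over 35116 windows of all genes, 17.5% held the motif. ZEB1 gave 7 of the 13 windows, more than any other gene, and 2 matches in 13 windows lie near that share. A match in this window is a description and not a binding site. The stretch before the most upstream ZEB1 start, chr10:31318167-31318416 on the plus strand, is shown because only ZEB1 had a match among the genes searched. The capitals mark the motif, which begins at -57.
ZEB1 upstream: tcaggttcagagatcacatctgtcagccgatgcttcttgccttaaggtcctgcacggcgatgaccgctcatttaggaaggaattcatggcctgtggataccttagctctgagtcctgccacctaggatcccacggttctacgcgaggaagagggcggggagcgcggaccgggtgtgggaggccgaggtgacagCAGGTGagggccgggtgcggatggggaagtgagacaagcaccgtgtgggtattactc

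SNAI1 and SNAI2 had the same order of libraries. SNAI1, whose protein is short-lived and a direct repressor of CDH1, had 77 reads in the parent, or 9.96 RPKM (7.86 to 12.4), 106 reads in subclone 1, or 13.4 RPKM (10.9 to 16.1), and 71 reads in subclone 2, or 8.73 RPKM (6.82 to 11.0). SNAI2, its close relative, had 78 reads in the parent, or 8.23 RPKM (6.50 to 10.3), 105 reads in subclone 1, or 10.8 RPKM (8.82 to 13.1), and 76 reads in subclone 2, or 7.62 RPKM (6 to 9.53). Both were highest in subclone 1 and lowest in subclone 2, but neither subclone could be told from the parent. The ratios of subclone 1 over the parent were 1.34 for SNAI1 (0.990 to 1.82) and 1.31 for SNAI2 (0.969 to 1.78). Between the subclones, subclone 2 was lower by 1.53-fold for SNAI1 (1.12 to 2.10) and by 1.42-fold for SNAI2 (1.04 to 1.93). The ratio of SNAI1 to SNAI2 lay between 1.15 and 1.24 in the 3 libraries, and each interval held 1.

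PRRX1 was found only in the parent library. It had 1.86 RPKM there (1.29 to 2.60), from 34 reads, and was listed in neither subclone. A count of 0 allows up to 3 reads, which is 0.160 RPKM in subclone 1 and 0.156 RPKM in subclone 2. Against that limit, and with the reads of the parent taken as exact, the level of PRRX1 was at least 11.6-fold lower in subclone 1, and for subclone 2 this bound was 11.9-fold. When the reads of each library are allowed their counting error, the exact 95% intervals of these folds start at 8.96 and 9.19. Of the 9475 genes with at least 34 reads in the parent, 2 had none in both subclones, PRRX1 and CD81. By level the cut is wider. In all, 435 genes were listed in the parent and at 0 in both subclones. Of these, 13 had a parental RPKM at or above that of PRRX1, with PRRX1 itself included. These counts were made after the values were seen. The genes around PRRX1 on chromosome 1 were read in all 3 libraries: GORAB, the next on one side, had 4.56, 4.28 and 4.75 RPKM in the parent, subclone 1 and subclone 2, and FMO4, on the other side, had 0.622, 1.11 and 1.28 RPKM. KIFAP3, beyond GORAB, had 27.7, 15.9 and 13.2 RPKM. The related homeobox gene PRRX2 ran the other way, with 4 parental reads against 27 and 13 in subclones 1 and 2. TWIST1 was listed in no library, which allows up to 3 reads in each.

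On the scale of log2 (RPKM + 0.1), 8 of the 10 genes passed the filter and entered the counts. PRRX1 and TWIST1 did not. In subclone 1 over the parent, 2 of the 8 were at least 2-fold higher (CDH1 and ZEB2), against 4.90% of the 11370 genes, and 0 were at least 2-fold lower, against 1.82%. In subclone 2 over the parent, 1 was higher (CDH1), against 5.33% of all genes, and 0 were lower, against 2.16%. In subclone 2 over subclone 1, 0 were higher, against 1.42%, and 1 was lower (ZEB2), against 1.39%. Taken over the 8 genes, the median log2 ratio was 0.40 (subclone 1 over the parent), 0.025 (subclone 2 over the parent) and -0.37 (subclone 2 over subclone 1), while the medians of all 11370 genes were 0.0043, 0.037 and 0.034. Both subclones share the parent library, so their ratios over it are not independent.

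**Figure D3:**
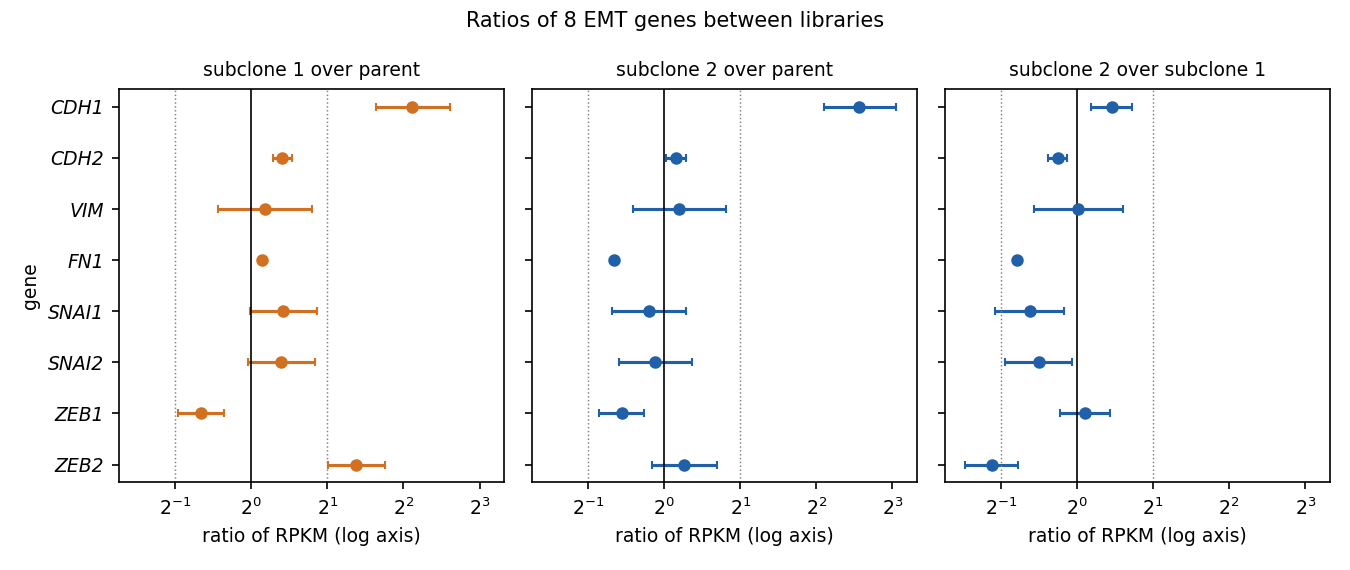
Ratio of RPKM between 2 libraries (horizontal axes, logarithmic to base 2) for the 8 EMT genes past the filter (vertical axis), with exact 95% counting intervals; dotted lines stand at 2-fold. CDH1 lies beyond 2-fold in both subclones over the parent, ZEB2 lies beyond it in subclone 1 over the parent and, on the lower side, in subclone 2 over subclone 1, and the intervals of VIM hold 1 in all 3 panels.

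The order of the levels, per length, began with FN1 and CDH2 in each library. In the parent SNAI1, SNAI2 and ZEB1 followed, and each did not differ from the next beyond counting error, then VIM, and then CDH1, ZEB2 and PRRX1, which again did not differ from their neighbours. In subclone 1, SNAI1, SNAI2 and CDH1 came next, and each did not differ from its neighbour in this order. The intervals of SNAI1 (10.9 to 16.1 RPKM) and CDH1 (7.76 to 10.3 RPKM) did not overlap, however. ZEB2, ZEB1 and VIM came after them, again without a difference between neighbours. In subclone 2, CDH1 came directly after CDH2, above SNAI1 by 1.41-fold (1.08 to 1.86), SNAI1 did not differ from SNAI2, nor ZEB1 from VIM, and ZEB2 was the lowest of the genes found. By rank, CDH1 was number 7 of 9 in the parent, number 5 of 8 in subclone 1 and number 3 of 8 in subclone 2.

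The genes of most similar pattern were sought for the EMT genes whose RPKM averaged 10 or more, as the smallest distance between their pairs of log2 ratios over the parent among 6011 genes, over 3 libraries. For CDH2 they were CHFR, NUCB1 and IMPACT (distances up to 0.015), for FN1 C11orf51, CREG1 and PLK2 (up to 0.10), and for SNAI1 CLMP, SRPX and C6orf125 (up to 0.071). With 3 libraries many genes share a pattern by these measures, and no function is read from it.

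CDH17 and CDH6 were, like CDH1, lowest in the parent. Of 11 other cadherins, 7 were listed and 3 passed the filter, of which 2 were at least 2-fold higher in each subclone over the parent (median log2 ratio 1.19 in subclone 1 and 1.47 in subclone 2). Among all genes past the filter, 4.90% were at least 2-fold higher in subclone 1 and 5.33% in subclone 2. CDH17, the liver-intestine cadherin, had 53.8 RPKM in the parent, 123 RPKM in subclone 1 and 165 RPKM in subclone 2, and was the most abundant cadherin measured. CDH6, kidney cadherin, had 9.49, 30.4 and 26.5 RPKM in the same order. CDH24 was under 2-fold, and CDH11, a mesenchymal cadherin, had 3 reads in the parent and 1 in each subclone. Among the adherens junction partners, 10 of 11 passed the filter, 0 were at least 2-fold higher in subclone 1 and 1 in subclone 2, with medians of 0.22 and 0.35. That gene was JUP, encoding plakoglobin, at the edge of the threshold with a log2 ratio of 1.00 and 51.1 RPKM in the parent, 79.4 RPKM in subclone 1 and 103 RPKM in subclone 2. The catenin genes CTNNA1 and CTNNB1 stayed under 2-fold. CTNNA1 had 112, 125 and 141 RPKM, and CTNNB1, encoding β-catenin, had 110, 72.1 and 84.8 RPKM.

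Of 19 epithelial surface and junction genes, 16 were listed and 11 passed the filter. In each subclone over the parent, 3 of the 11 were at least 2-fold higher and 0 lower, with medians of 0.36 and 0.37. The shares of all genes past the filter, higher and lower, were 4.90% and 1.82% in subclone 1 and 5.33% and 2.16% in subclone 2. The count of 0 lower lies near its shares and does not set the list apart. The 3 higher genes were CLDN1 and CLDN7, claudins of the tight junction, and SPINT1, an inhibitor of membrane serine proteases. CLDN1 had 12, 93 and 207 reads in the parent, subclone 1 and subclone 2, with log2 ratios over the parent of 2.77 and 3.87. SPINT1 had 14, 54 and 97 reads (1.83 and 2.63), and CLDN7 13, 35 and 64 reads (1.33 and 2.15). All 3 had the order of CDH1, lowest in the parent and highest in subclone 2, and CLDN1 also exceeded 2-fold between the subclones, with a log2 ratio of 1.11. The abundant keratin genes KRT8, KRT18 and KRT19 were within 2-fold in every comparison, and EPCAM had at most 3 reads in any library. Of the 7 hepatocyte markers past the filter, 3 were at least 2-fold higher in subclone 1 and 2 in subclone 2. Among all genes past the filter these shares were 4.90% and 5.33%. The medians of the hepatocyte markers were 0.76 and 0.45. ALB and APOB were likewise lowest in the parent, with 25, 517 and 736 reads of ALB and 19, 80 and 278 reads of APOB, and their part in the level of CDH1 was not tested. The hepatocyte marker TF, encoding transferrin, was high in subclone 1 alone, with 36, 196 and 39 reads. AFP, with 22, 39 and 41 reads, and HNF4A, with 170, 177 and 245 reads, were within 2-fold. GPC3 was not listed.

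Among regulators of the epithelial state, 9 of 15 passed the filter, with medians of 0.02 and 0.39 over the parent. At least 2-fold higher were 0 of the 9 in subclone 1, against 4.90% of all genes past the filter, and 1 in subclone 2, against 5.33%. This was FOXA1, a pioneer factor of liver epithelium, with 7.63 RPKM in the parent, 8.96 RPKM in subclone 1 and 21.8 RPKM in subclone 2. ELF3, an epithelial ETS factor and the most abundant of the list, had 64.3, 96.7 and 128 RPKM, which is within 2-fold. Splicing regulator ESRP2 had 2.16, 1.56 and 1.95 RPKM, ESRP1 was not listed, and GRHL2 had at most 1 read. The other EMT transcription factors, 9 of 16 past the filter, held 1 gene at least 2-fold higher in both subclones over the parent and had medians of -0.11 and -0.17. The gene was PRRX2 (log2 ratios 2.55 and 1.49), and its log2 ratio of subclone 2 over subclone 1 was -1.05. With 4 reads in the parent, the interval of its ratio in subclone 2 over the parent, 0.954 to 13.0, held 1. FOXQ1 and SOX4 were lower in both subclones than in the parent without reaching 2-fold. FOXQ1 had 40.1, 20.5 and 29.8 RPKM in the parent, subclone 1 and subclone 2, and SOX4 had 70.3, 42.4 and 46.7 RPKM.

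Mesenchymal markers differed in both directions. Of 27, 22 were listed and 14 passed the filter. In subclone 1 over the parent 3 were at least 2-fold higher and 1 lower, in subclone 2 over the parent these counts were 0 and 4, and between the subclones 0 were higher and 5 lower in subclone 2. The shares of all genes past the filter, higher and lower, were 4.90% and 1.82%, 5.33% and 2.16%, and 1.42% and 1.39% in the same order. The medians of the mesenchymal markers were 0.23, 0.02 and -0.58 for these comparisons. The 3 higher in subclone 1 were SPARC, LOX and ITGA5. LOX, a collagen cross-linking enzyme, had 87, 406 and 157 reads in the parent, subclone 1 and subclone 2. SPARC, a collagen-binding matricellular protein that the study itself chose for follow-up, had 46, 417 and 39 reads. MMP2, a gelatinase, and COL3A1, a fibrillar collagen chain, were lowest in subclone 2, with 203, 62 and 13 reads of MMP2 and 109, 56 and 12 reads of COL3A1. NES, encoding the filament protein nestin, had 83.6, 50.01 and 39.4 RPKM, and the smooth muscle gene TAGLN had 13, 13 and 3 reads. TNC, encoding the matrix protein tenascin C, stood below the filter and is named after its values were seen: it had 27 reads in the parent and 1 in each subclone. S100A4 and TPM2, which are among the most abundant members, were within 2-fold over the parent, and S100A4 had 1832, 2024 and 2336 RPKM.

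**Figure D4:**
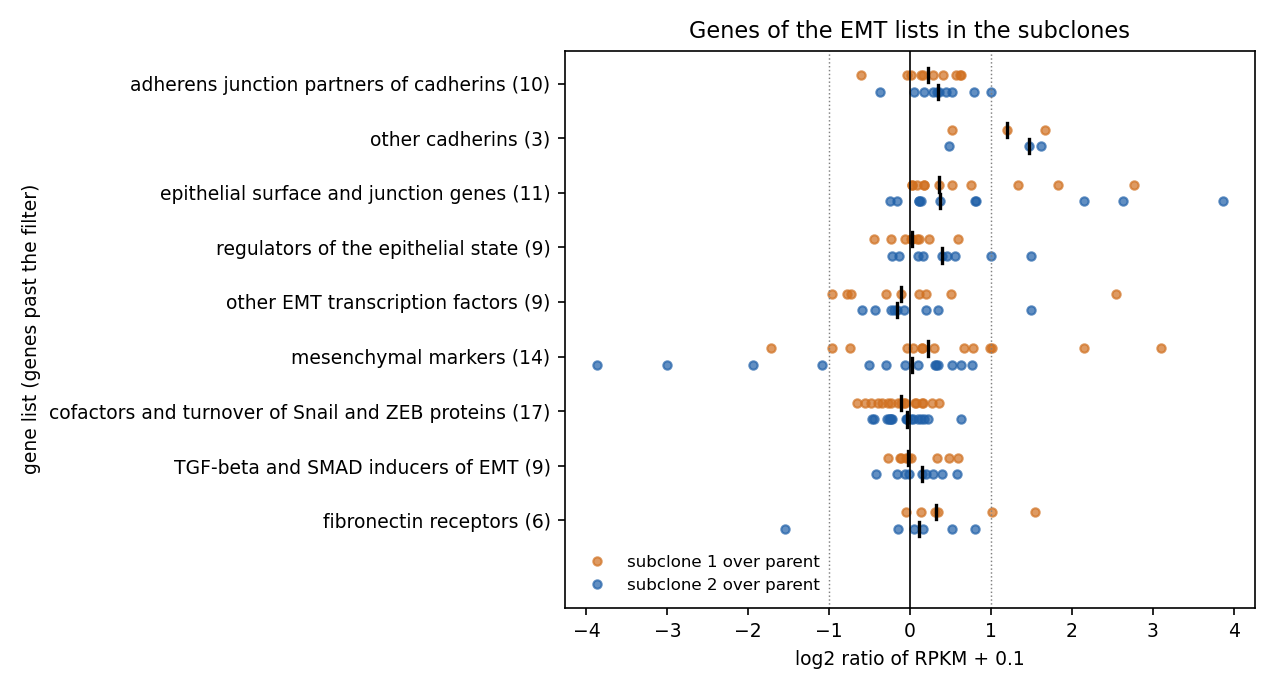
Log2 ratio of RPKM + 0.1 over the parent (horizontal axis) for each gene past the filter in 9 lists (vertical axis, with the number of genes), in orange for subclone 1 and blue for subclone 2; black bars are medians and dotted lines stand at 2-fold. The epithelial surface genes reach 3.87 on the right with none beyond 2-fold on the left, whereas the mesenchymal markers spread to -3.87 in subclone 2 and to 3.10 in subclone 1.

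Among fibroblast markers, 6 of 8 were listed, and they summed to 15.7 RPKM in the parent, 31.2 RPKM in subclone 1 and 24.3 RPKM in subclone 2, with DCN at 8, 47 and 30 reads. Of the 3 past the filter, LUM and DCN were at least 2-fold higher in both subclones, and COL3A1 was at least 2-fold lower in subclone 2. The sum was mostly LUM (10.1, 24.0 and 21.0 RPKM), while COL1A2 had 1, 1 and 0 reads, THY1 had 0, 1 and 1, and PDGFRB and FAP were at 0. The 5 endothelial markers summed to 5.11, 11.9 and 7.61 RPKM, with at most 1 read of CDH5. PECAM1 was at least 2-fold higher in subclone 1 (34, 103 and 48 reads) and KDR in subclone 2 (37, 54 and 88 reads). For all genes past the filter, the shares higher and lower than the parent were 4.90% and 1.82% in subclone 1 and 5.33% and 2.16% in subclone 2. Of the leukocyte markers, 2 passed the filter and 0 of these were 2-fold apart, while CD14, under the filter, had 1, 8 and 0 reads. All listed leukocyte markers summed to 76.7, 114 and 101 RPKM, nearly all CD68, with PTPRC at no more than 1 read and CD3E at 0. Their part in the levels of the EMT genes was not tested. In RNA from a whole culture, fewer cells that express a gene and less RNA per cell cannot be told apart.

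Of 17 cofactors and turnover factors of Snail and ZEB proteins, 17 passed the filter and 0 were at least 2-fold higher or lower in any comparison, with medians over the parent of -0.11 and -0.04. The most abundant was HDAC1, a deacetylase recruited by SNAI1, with 73.2, 82.0 and 82.5 RPKM. Among the 10 genes of TGF-beta and SMAD signalling, the best known inducers of EMT, 9 passed the filter and again 0 were at least 2-fold apart, with medians of -0.03 and 0.15. TGFB1 had 64.4, 89.7 and 78.4 RPKM. Few of all genes past the filter were 2-fold apart either. The shares higher and lower were 4.90% and 1.82% in subclone 1 over the parent and 5.33% and 2.16% in subclone 2. Between the subclones they were 1.42% and 1.39%. Counts of 0 in lists of this size lie near these shares and do not set the lists apart. Of 9 fibronectin receptor genes, 6 passed the filter, with 2 higher in subclone 1, 1 lower in subclone 2 and medians of 0.33 and 0.11. ITGA5, the partner of ITGB1 in the main fibronectin receptor, was just past 2-fold in subclone 1 (log2 ratio 1.01), with 40.0, 80.9 and 57.2 RPKM. ITGB3, a subunit of the vitronectin receptor, had 18, 58 and 5 reads, with log2 ratios over the parent of 1.54 in subclone 1 and -1.54 in subclone 2. ITGB1 had 288, 356 and 322 RPKM.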

How the data were processed

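RNA was extracted with Trizol and libraries were made with the Illumina TruSeq kit, 1 for each of the parent, subclone 1 and subclone 2. The authors deposited RPKM per gene, with Entrez number and symbol. The submitters' processing notes name hg19; the aligner, the counting tool and the annotation are not given in the sources used here. Genes not listed in a library were taken as 0. The library totals came from the common step among the 400 lowest RPKM values, and reads of a gene are the smallest whole numbers that fit its RPKM in the 3 libraries at a length near a GENCODE transcript. This resolved 98.7% of the 11370 genes past the filter. The lengths behind the EMT genes ranged from 1722 bases (SNAI1) to 9243 (ZEB2). Reads sharing a divisor can be understated, which widens intervals.

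Ratios are log2 of RPKM + 0.1. The background was the genes whose RPKM averaged 1 or more, and 2-fold was the rule of size. Recovery was tested on simulated data whose gene lengths were drawn from the same GENCODE transcripts. The annotation behind the files is not known, so this cannot show how well their own reads were recovered. The 10 genes, the 13 gene lists and the rule for named genes (genes of a list past the filter and 2-fold apart in any comparison, at most 6 per list by size, and up to 3 of the most abundant) were chosen with earlier results of these data known. Alternatives were pseudocounts of 0.01 and 1, equal RPKM sums, median centring, division by ACTB or GAPDH, no filter, an average RPKM of 5 or more, and 1.5-fold in place of 2-fold. Other genes named, among them neighbouring genes, TNC and CD81, were added after values were seen, and antisense overlaps came from GENCODE on GRCh38. Software was scipy 1.17.1, pandas 2.3.3 and numpy 2.4.6 on Python 3.11.15.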

Additional observations from a re-analysis of the deposited data

Results flagged for a closer look

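The subclones lay on opposite sides of the parent for 3 EMT genes whose interval between the subclones left out 1. FN1 had a log2 ratio over the parent of 0.14 in subclone 1 and -0.65 in subclone 2. SNAI1 had 0.42 and -0.19, and SNAI2 had 0.39 and -0.11. For SNAI1 and SNAI2 the interval of each subclone over the parent held 1, so their opposite signs are within counting error. The difference between the subclones rests on 1 library of each and a shared parent library, and was not tested.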

How the results depend on the processing

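Of 156 log2 ratios of EMT genes under 6 alternatives of pseudocount and scaling, 145 stayed inside the 95% counting interval of the reported ratio, 11 did not, and 0 turned a 2-fold difference around. VIM between the subclones, at 0.02, ran from -0.013 to 0.14. CDH1 stayed between 1.69 and 2.10 in subclone 1 and between 2.11 and 2.57 in subclone 2 over the parent. PRRX1 moved with the pseudocount, from -7.55 to -1.52, since its level in the subclones is 0. The median of the 8 genes in subclone 2 over the parent ran from -0.15 to 0.087, so its direction is not settled. Of the counts, those lower in subclone 2 than in subclone 1 depended most on the setting: 1 as reported (ZEB2), 0 with a pseudocount of 1, with division by ACTB or GAPDH, or with a mean RPKM of at least 5, and 3 at 1.5-fold. The count lower than the parent was 1 in each subclone with no filter, which admits PRRX1, and 1 in each at 1.5-fold (ZEB1 in subclone 1, FN1 in subclone 2). The shares of all genes moved as well. Lower than the parent were 5.47% in subclone 1 and 5.83% in subclone 2 with no filter, and 7.46% and 7.3% at 1.5-fold. Between the subclones, 4.11% were lower in subclone 2 at 1.5-fold. With a mean RPKM of at least 5, 1 gene and not 2 was higher in subclone 1 than in the parent, as ZEB2 is removed. The share of all genes higher was then 2.84%.

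Division by ACTB moved the median of all genes to -0.13 in subclone 1 over the parent, and the share of higher genes among those 2-fold apart from 72.9% to 57.8%. In subclone 2 over subclone 1 the median moved to 0.16 with ACTB and 0.15 with GAPDH, and that share from 50.5% to 63.9% and 62.6%. No paired analysis was possible because each line has 1 library, and leaving a library out was not possible either. Few reads limit several ratios: VIM had 43 reads in the parent, CDH1 45 and PRRX1 34, and SNAI1 and SNAI2 had at most 106 in any library.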
